A study of Mus musculus with 3 samples.

Results

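The genes described here encode 10 transcription regulators that direct retinal progenitors toward amacrine and horizontal cells: Foxn4, Ptf1a, Tfap2a, Tfap2b, Prdm13, Onecut1, Onecut2, Onecut3, Lhx1 and Prox1. Peaks of the transcription factor Atoh7 were taken for a gene when the peak midpoint lay inside the gene body or within 100 kb of it. That rule took 10 peaks of the 3668 in the deposited list, at 6 of the 10 genes. The study used CUT&RUN, an assay that cuts and frees the DNA beside an antibody-tagged protein, on retina of C57Bl6/J mice at embryonic day 14, with 2 libraries made with an Atoh7 antibody and 1 with IgG. All 3 libraries share strain, tissue and age, and the labels name no mutation or treatment and do not say whether animals were pooled. The list is a single set of positions on the mm10 build with no value per library, no peak height and no IgG value. Every peak name begins with Atoh7_R1, so the peaks may rest on the replicate 1 library alone, and the labels do not say whether replicate 2 or IgG entered the selection. The read depth behind a peak is unknown, the replicates could not be set against each other, and no test between samples was possible. Marker genes of the tissue could not be checked, because the list holds no expression values.

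Amacrine and horizontal cells are interneurons of the retina, and they arise early, in the same period as ganglion cells and cones. Foxn4 acts in progenitors upstream of the basic helix-loop-helix (bHLH) factor Ptf1a, which commits cells to the amacrine and horizontal fates and away from the ganglion cell fate, and the Tfap2 and Prdm13 genes act below Ptf1a. Onecut factors, Lhx1 and Prox1 serve in horizontal cells, and Onecut1 and Onecut2 are also made in newborn ganglion cells. Atoh7 is itself a bHLH factor, best known for its need in ganglion cells, and cells that have made Atoh7 also become horizontal cells, amacrine cells and cones. Proteins of this class bind E-boxes, the hexamers written CANNTG.

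Foxn4, Onecut1 and Onecut2 had a peak inside the gene or within 10 kb, while Lhx1, Onecut3 and Prdm13 had their nearest peak between 53.4 and 64.1 kb away. Ptf1a, Tfap2a, Tfap2b and Prox1 had none within 100 kb. The count of 6 of 10 genes (60.0%, 95% exact Clopper-Pearson interval 26.2 to 87.8%) stood beside 34.9% of all 21631 protein-coding genes under the same rule, and the interval spans that background. It covers the counting of genes only, and the genes were chosen with results of these data known. At 10 kb the count was 3 of 10 against a background of 12.4%, at 50 kb it was the same 3 genes against 24.4%, and inside the gene body it was 1 of 10, Foxn4, against 7.17%. At 50 kb and inside the body the members' share was therefore close to that of genes in general. Of the 10 genes, 3 held 2 or more peaks, against 13.2% of all protein-coding genes, and 3 held exactly 1. Those with 2 or more were Foxn4, Onecut1 and Onecut3, and only Onecut1 was the nearest protein-coding gene to 2 peaks.

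Letters of the genome were at hand for promoter windows only, from RefSeq on GRCm38.p6, the assembly that mm10 names. A window covers 250 bases before to 50 after an annotated start, and 8 of the 10 members matched, with 10 windows between them. Onecut2 and Onecut3 were not matched. No peak overlapped any of these 10 windows. The 250 bases before the start are shown for the gene with a peak just upstream (Onecut1), for a gene with a distant upstream peak (Lhx1), for a gene without a peak (Prox1), and for the neighbour Mbd3, where these 250 bases lie inside a peak of the Onecut3 interval. Capitals mark each CANNTG, and the sequences read 5′ to 3′ toward the start of the gene.
Onecut1, chr9:74861671-74861920, plus strand: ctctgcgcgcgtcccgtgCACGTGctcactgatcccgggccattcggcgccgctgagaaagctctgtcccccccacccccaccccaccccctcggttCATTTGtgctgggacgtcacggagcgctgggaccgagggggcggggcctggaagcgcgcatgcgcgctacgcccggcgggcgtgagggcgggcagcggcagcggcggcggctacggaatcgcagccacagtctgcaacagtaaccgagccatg
Lhx1, chr11:84525535-84525784, minus strand: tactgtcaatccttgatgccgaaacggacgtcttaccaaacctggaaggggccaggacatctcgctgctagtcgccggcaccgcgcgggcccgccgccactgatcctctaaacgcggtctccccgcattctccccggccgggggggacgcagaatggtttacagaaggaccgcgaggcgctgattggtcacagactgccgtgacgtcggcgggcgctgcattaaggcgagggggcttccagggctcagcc
Prox1, chr1:190170828-190171077, minus strand: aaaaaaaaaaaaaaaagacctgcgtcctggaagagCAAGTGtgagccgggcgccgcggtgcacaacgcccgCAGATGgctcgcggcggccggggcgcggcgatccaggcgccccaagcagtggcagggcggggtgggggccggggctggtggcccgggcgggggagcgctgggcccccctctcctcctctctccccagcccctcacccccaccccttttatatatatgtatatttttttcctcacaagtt
Mbd3, chr10:80399532-80399781, minus strand: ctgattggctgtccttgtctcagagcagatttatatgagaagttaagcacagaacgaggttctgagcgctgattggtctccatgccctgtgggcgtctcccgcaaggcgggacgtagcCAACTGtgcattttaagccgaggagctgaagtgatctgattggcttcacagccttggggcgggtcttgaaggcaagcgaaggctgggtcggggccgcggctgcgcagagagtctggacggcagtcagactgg

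Counted from the base before the start as -1, the Onecut1 window held CACGTG from -232 and CATTTG from -153. The Prox1 window shown held CAAGTG from -215 and CAGATG from -179, while the second Prox1 window, at another annotated start, and the Lhx1 window held no E-box. Over the full 300 bases, 3 of the 10 member windows held CANNTG, those of Onecut1, Prox1 and Tfap2b, where 72.3% of 32619 promoter windows did. CAGCTG, a hexamer bound by many neural bHLH proteins, was in 0 of the 10 member windows and in 16.4% of all windows. CATCTG, read on either strand, was in 1 of the 10, that of Prox1 as CAGATG, and in 17.1% of all. CATATG and CAGGTG, the latter also read as CACCTG, were in 0 of the 10, against 3.82% and 20.3% of all windows. CANNTG includes each of the other hexamers. The letters under the members' own peaks were not analysed here, so these counts describe promoters that no listed peak touched.

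Foxn4 (chr5:114254164-114274418, minus strand), a forkhead gene of progenitors, held a peak in its body at chr5:114264046-114264533. That peak was 488 bp wide, with 24.7% of listed peaks as wide or wider, and it was centred 9.47 kb downstream of the annotated start. A further peak at chr5:114284781-114284978 was centred 11.1 kb upstream of that start and 10.5 kb outside the gene body. It was 198 bp wide, the narrowest of the 10, and the myosin gene Myo1h lay nearer to it, at 4.37 kb. The centres of the Foxn4 peaks were 20.6 kb apart. Whether the inner peak lies in an exon or an intron was not analysed here, since the gene table gives bodies only.

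Ptf1a (chr2:19445663-19447501, plus strand), the bHLH gene that commits cells to both fates, had no listed peak nearer than 549 kb. That nearest peak, at chr2:18896033-18896524, was inside Pip4k2a, a lipid kinase gene, and 72.4% of protein-coding genes had a peak as near or nearer. Tfap2a (chr13:40713802-40738238, minus strand), an AP-2 factor gene of amacrine and horizontal cells, was similar at 512 kb, and 70.9% of genes had a peak as near or nearer. These were the members farthest from any listed peak. Tfap2b (chr1:19208908-19238845, plus strand), its relative with an overlapping role, had its nearest peak at 152 kb, at chr1:19056860-19057340. That peak, 481 bp wide, lay closest to the family member Tfap2d among protein-coding genes, 45.9 kb off, and Tfap2d lies 35.0 kb from Tfap2b.

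Prdm13 (chr4:21675865-21685963, minus strand), a zinc finger gene of amacrine cells, had a single peak at chr4:21611538-21612058. It was 521 bp wide and lay downstream of the gene, 64.1 kb beyond the body and 74.2 kb from the start. No other protein-coding gene was nearer, the next on the far side being Nkain3 at 831 kb, and the next listed peak was 877 kb away. The peak was intergenic, and the closest annotated end of any gene, 14494 bp off, was that of the pseudogene Gm11875.

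**Figure D1:**
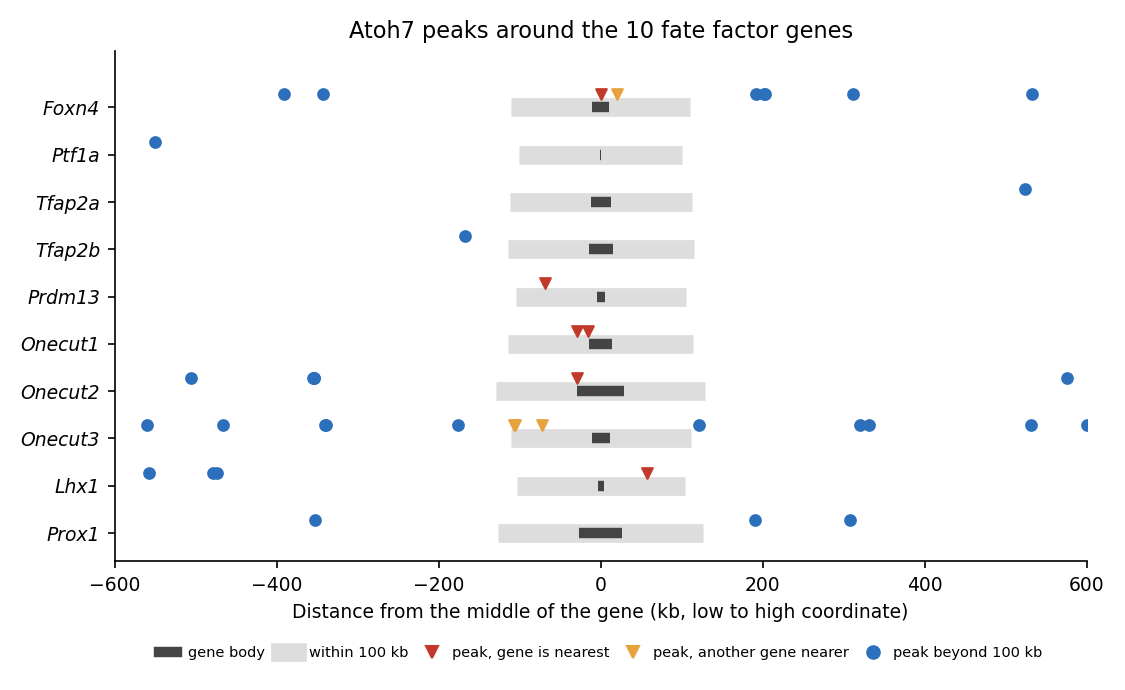
Peak centres around each of the 10 genes, drawn as distance in kb from the middle of the gene out to 600 kb, with dark bars for gene bodies and grey bars for the 100 kb on either side. Red triangles are peaks for which the gene is the nearest protein-coding gene (6 peaks), orange triangles are peaks with another gene nearer (4 peaks, of which a pair at Onecut3 overlap), and blue dots are peaks beyond 100 kb; the grey bars of Ptf1a, Tfap2a, Tfap2b and Prox1 are empty.

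The windows of the Onecut genes held 6 of the 10 peaks, of which the 3 in the Onecut3 window were nearer to other genes. Onecut1 (chr9:74861921-74889648, plus strand), a cut-homeodomain gene of horizontal and ganglion cell precursors, had a pair of peaks, both upstream. The nearer, at chr9:74860509-74860855, was 347 bp wide and centred 1.24 kb from the start, and it ended 816 bp short of the promoter window shown above. The farther, at chr9:74846848-74847048, was 201 bp wide and centred 15.0 kb from the start. Both lay inside the annotated body of Gm33562, a long noncoding RNA gene whose body runs past the Onecut1 start, and the farther peak was 1489 bp from where a second such gene, Gm16551, ends or begins. The centres were 13.7 kb apart, and no other protein-coding gene was nearer to either.

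Onecut2 (chr18:64340032-64398488), which overlaps Onecut1 in function, had 1 peak at its low-coordinate end, at chr18:64339717-64340076. The 360 bp peak shared 45 bp with the gene, and its centre was 136 bp outside it. It was the only member peak that straddled an end of a member gene. The gene on the other side, St8sia3, lay 63.8 kb from it.

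Onecut3 (chr10:80494906-80517266), the remaining gene of the family, had the most peaks by count, 3, but none for which it was the nearest gene. A pair at chr10:80398985-80399185 (201 bp) and chr10:80399532-80400016 (485 bp) flanked the annotated start of Mbd3, a chromatin repressor gene on the minus strand. Their centres were 446 and 243 bp from that end of the gene and 0.689 kb from each other. The Mbd3 promoter letters shown above, with CAACTG from -132, lie wholly inside the wider peak of the pair. The remaining peak, at chr10:80434016-80434294 (279 bp), was centred 179 bp from an end of Tcf3, an E-protein gene whose product pairs with bHLH factors such as Atoh7. These peaks were 95.8, 95.1 and 60.8 kb from Onecut3. Its window held bodies of 9 other protein-coding genes, where the other 9 members had 0 to 3, and 44.7% of genes with 7 or more such neighbours held a peak within 100 kb.

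Lhx1 (chr11:84517975-84525534, minus strand), a LIM-homeodomain gene of horizontal cells, had 1 peak at chr11:84578608-84579248. At 641 bp it was the widest of the 10, and 8.03% of listed peaks were as wide or wider. It lay 53.4 kb upstream of the start in intergenic sequence, with Mrm1 the next protein-coding gene beyond it at 234 kb. Prox1 (chr1:190118035-190170827, minus strand), a homeobox gene of horizontal and other retinal cells, had no peak within 100 kb. Its nearest, at chr1:190334000-190334512, was 163 kb upstream, and no other protein-coding gene was nearer to that peak.

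**Figure D2:**
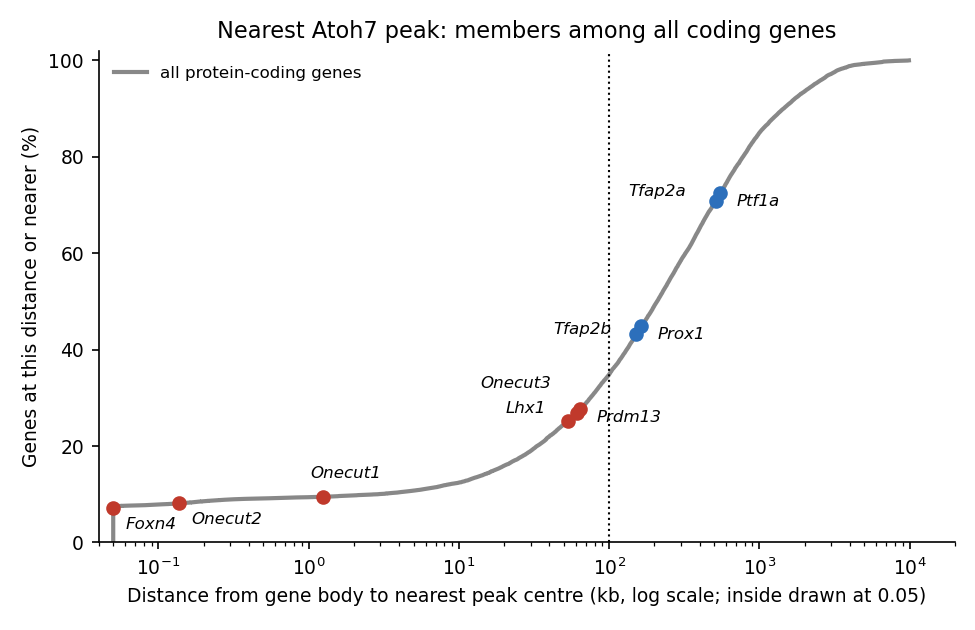
Distance from each gene body to its nearest peak centre in kb on a log axis, against the percentage of the 21631 protein-coding genes as near or nearer (grey curve), with members that hold a peak within 100 kb (dotted line) in red and the others in blue. Foxn4, Onecut2 and Onecut1 lie at 7.17 to 9.47%, Lhx1, Onecut3 and Prdm13 at 25.2 to 27.6%, and the 4 blue genes at 43.2 to 72.4%.

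Ordered by nearest peak, Foxn4, Onecut2 and Onecut1 came first (inside, 0.136 and 1.24 kb), then Lhx1, Onecut3 and Prdm13 (53.4, 60.8 and 64.1 kb), then Tfap2b and Prox1 (152 and 163 kb), and last Tfap2a and Ptf1a. The list holds no spread for a peak's position, so neighbours in this order could not be tested against each other. The median member was 62.4 kb from a peak and the median protein-coding gene 208 kb. The 100 kb limit fell between the outermost Onecut3 peak, at 95.8 kb, and the next peak on that gene's other side, at 111 kb, in Csnk1g2. No other member had a peak between 64.1 and 152 kb.

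Most members sit in sparsely populated stretches of the genome, with a median of 1.5 other protein-coding genes in the window against 4 over all genes. Of the 9 members with 0 to 3 neighbours, 5 held a peak, where 27.9% of all genes with as few did. When each peak was given only to its nearest protein-coding gene, 5 of the 10 members held one (50%, exact interval 18.7 to 81.3%) against 11.2% of all genes, and 15.6% of genes with 0 to 3 neighbours. Genes with few neighbours are nearest to more sequence, and the part of this in the members' count was not tested. Onecut3 dropped out under that definition, and 6 of the 10 peaks remained.

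The 10 peaks were 198 to 641 bp wide with a median of 353.5 bp, against 381 bp (quartiles 269 and 486 bp) over all listed peaks on chromosomes 1 to 19 and X. The narrowest 3 of the 10 were 198, 201 and 201 bp wide, 1 each at Foxn4, Onecut1 and Onecut3, and each had a wider companion in the same window. Of all listed peaks on those chromosomes, 7.73% were 201 bp wide or narrower. That bound was taken from the narrowest 3 of the 10, so their share at or below it was fixed in advance and no comparison is drawn. Width is the extent of the call and not a measure of binding. By position, 4 of the 10 were within 1 kb of an end of an annotated gene (26.5% of all listed peaks), 3 were elsewhere in a gene body (46.2%) and 3 were intergenic (27.3%). Of the 4 at gene ends, 1 was at a member, Onecut2, and the others were at Mbd3 and Tcf3. Another listed peak lay within 25 kb for 6 of the 10, the pairs at Foxn4, at Onecut1 and at Mbd3 in the Onecut3 window, compared with 24.9% of all listed peaks. Within 1 kb only the Mbd3 pair remained, 2 of the 10 peaks, compared with 3.5% of all listed peaks. Peaks that share a window are not independent observations.

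**Figure D3:**
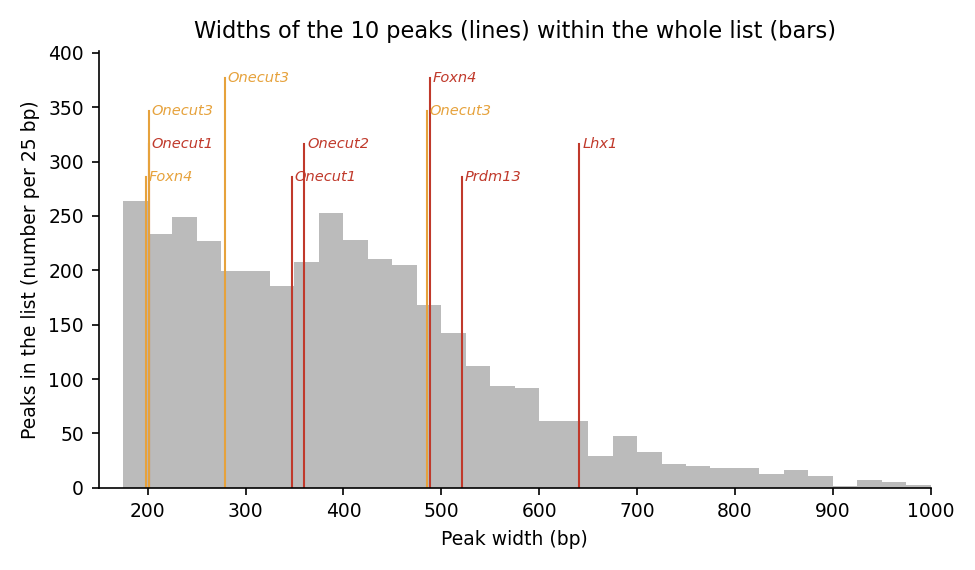
Widths in bp of the 10 peaks (vertical lines with the member's name, red where the member is the nearest protein-coding gene and orange where another gene is) over the number of listed peaks per 25 bp of width (grey bars, drawn to 1000 bp). The lines run from 198 bp at Foxn4 to 641 bp at Lhx1.

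Peak names carry running numbers that rise along the genome to 7185, and 51.1% of the numbers are in the list, so an absent number marks a place in the order where a numbered peak is not listed. Around Tfap2a, Tfap2b and Prox1 the listed peaks on either side of the window had consecutive numbers (1666 and 1667, 19 and 20, and 450 and 451), so no absent number falls in those windows. Over the list, 51.6% of adjacent peaks on a chromosome had consecutive numbers. Around Ptf1a, 3 numbers were absent between the flanking listed peaks, which lay 549 and 2850 kb from the gene, and their positions are unknown. The 6 members with a peak had between 1 (Foxn4) and 5 (Onecut1) absent numbers between flanking peaks, 17 in all. Those flanking peaks lay from 111 kb (Onecut3) to 5140 kb (Prdm13) from the gene. The positions of these absent numbers are also unknown, and they need not fall within 100 kb of a member. The step that removed them was not stated in the labels.

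Other genes of the amacrine and horizontal cell programme were set beside the members in lists made for this comparison, with earlier results of these data known. The intervals cover the counting of genes only and do not allow for that choice. Of 21 other regulators, 16 held a peak within 100 kb (76.2%, exact interval 52.8 to 91.8%), against the background of 34.9%. The neighbours Dlx1 and Dlx2 are both counted and share the same 3 peaks, so the genes are not independent. When each peak was given only to its nearest protein-coding gene, 13 of the 21 held one, against 11.2% of all genes. In the gene body itself, 5 of the 21 held a peak, against 7.17% of all genes. Longer bodies span more sequence, and gene length was not matched in this count. Rbpj, a DNA-binding partner of Notch and of Ptf1a, had 4 of its 5 peaks in the body, and Barhl2, a homeobox gene of amacrine and ganglion cells, had 1 of 4. Ebf2 and Ebf3 each had both of their peaks in the body, and Rorb, a nuclear receptor gene that acts with Foxn4 upstream of Ptf1a, had 1 of 2. Bhlhe22, a bHLH gene of amacrine subtypes, had 1 peak, centred 153 bp outside the gene and overlapping its end. Isl1, Lhx9, Sall1, Sox2 and Ebf1 held none. The difference between this list and the 10 members was not tested.

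Of 17 genes of mature amacrine and horizontal cells, 8 held a peak (47.1%, exact interval 23 to 72.2%), an interval that spans the background of 34.9%. With the wider 50% of peaks alone, 2 of the 17 did (11.8%), against 20% of all genes. Peaks lay inside Chat, the acetylcholine-synthesis gene of starburst amacrine cells, Dab1, and Slc6a9, the glycine transporter gene, with 1 peak each. They were 177, 218 and 457 bp wide, and 177 bp was the smallest width in the list. Dab1 has a long body, chr4:103619500-104744844. Gja10, a connexin gene of horizontal cells, had 1 peak at 5.16 kb, and Slc32a1, which loads GABA and glycine into vesicles, had 3, the nearest at 12 kb. Slc18a3, which lies within Chat, shared the Chat peak, at 24.8 kb. The GABA-synthesis genes Gad1 and Gad2, by contrast with Slc32a1, had no peak nearer than 644 and 327 kb.

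**Figure D4:**
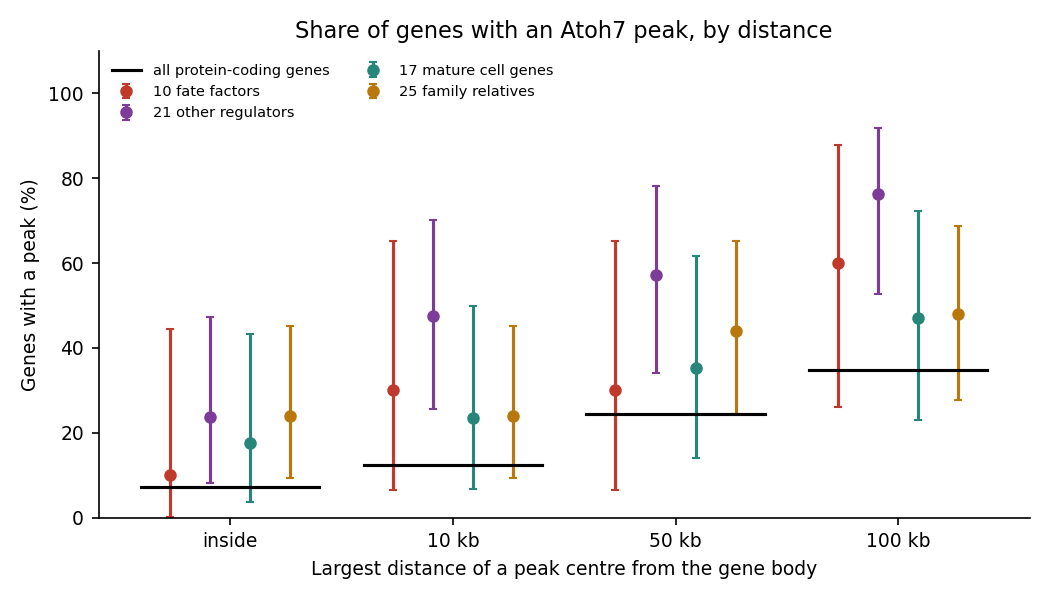
Percentage of genes with a peak centre inside the body or within 10, 50 or 100 kb, for the 10 fate factors and 3 other lists (points, with 95% exact intervals for counting of genes as bars) and for all protein-coding genes (black lines). The 10 fate factors are at 10, 30.0, 30.0 and 60.0% and their intervals span the black line at each distance. Isl1 and Lhx9 are counted both as other regulators and as family relatives.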

How the data were processed

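The submitters' processing notes name MACS2 2.2.7.1, bedtools, Picard 2.0.1, Bowtie2 2.3.5 and SAMtools on mm10 as the authors' tools, without roles or settings. Per the file headers, the deposited table gives chromosome, start, end, width and name, and width equals end minus start plus 1, so positions count from 1. Gene bodies were those of RefSeq on GRCm38.p6, with 21631 protein-coding genes on chromosomes 1 to 19 and X, and strand and start sites from the promoter table. The 3662 peaks on those chromosomes were assigned by midpoint. Counts were set beside all protein-coding genes, with exact Clopper-Pearson intervals and no test, since 1 list has no replicates. The window counts were checked on simulated data. Members and lists were chosen with earlier results of these data known. Named were all members, the genes nearest to their peaks, up to 6 genes per other list with the nearest peaks, and further genes named after their values were seen (Isl1, Lhx9, Sall1, Sox2, Ebf1, Dlx1, Dlx2, Gad1, Gad2, Lhx5, Prox2, Tfap2c, Tfap2d, Tfap2e and the neighbours of windows). A further regulator, left out of the lists, is not reported here. E-boxes were sought in promoter windows, not in peaks. Alternatives were distances of 10 and 50 kb, the gene body, any overlap, the nearest gene and the wider 50% of peaks. Scripts ran in Python 3.11.15 with scipy 1.17.1, pandas 2.3.3, matplotlib 3.10.9 and numpy 2.4.6.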

Additional observations from a re-analysis of the deposited data

How the results depend on the processing

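At 10 kb, 3 of 10 members held a peak, with 3 peaks in all, against 12.4% of all protein-coding genes. At that distance 10 of 21 other regulators, 4 of 17 mature cell genes and 6 of 25 family relatives did. At 50 kb, 3 of 10 members did, with 5 peaks, against 24.4% of all genes. Inside the body, 1 of 10 members held a peak, with 1 peak, against 7.17% of all genes. There 5 of 21 other regulators, 3 of 17 mature cell genes and 6 of 25 family relatives did, without matching for gene length. With the nearest gene only, the members held 6 peaks and 5 of 17 mature cell genes held one, against 11.2% of all genes. With the wider 50% of peaks, 4 of 10 members held 4 peaks in all and 2 of 17 mature cell genes (11.8%) held one, against 20% of all genes. The smaller distances take fewer peaks by construction. Other counts stayed within 1.5 times, and the members' median width moved by less than the SD of their widths. With the wider 50% of peaks that median rose by construction, from 353.5 to 504.5 bp. Inside the body it rests on 1 peak of 488 bp. Neither setting can show that the median is stable. Settings for the other lists, widths and E-boxes were chosen after seeing the data. No paired analysis was possible because the list has no value per library. Depth is unknown.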

Other observations

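Relatives of the members in the same gene families, also listed with earlier results of these data known, were counted by the same rule. Of 25, 12 held a peak within 100 kb (48.0%, exact Clopper-Pearson interval 27.8 to 68.7%), against 34.9% of all protein-coding genes, and the difference was not tested. Isl1 and Lhx9, both without a peak, are counted here and among the 21 other regulators. Cux2 and Lhx4 each had 1 of their 3 peaks in the gene body, Foxn3 had both of its 2 there, and Cux1, Lmx1b and Prdm8 had their single peak there. Cux genes carry cut domains like the Onecut genes. Named after their values were seen, Lhx5, a close relative of Lhx1, had its nearest peak at 147 kb, and Prox2 at 192 kb. In the AP-2 family, Tfap2c and Tfap2d had 1 peak each, at 20.7 and 45.9 kb, while Tfap2a, Tfap2b and Tfap2e had none within 100 kb.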
